A study of Mus musculus with 6 samples.

Results

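The genes described here are 36 markers of dividing cells, 16 that act in DNA replication (S phase) and 20 that act in mitosis, in the brains of E4f1 knockout (KO) and wild type (WT) mouse embryos. They were taken from a list of names, matched to the gene symbols of the deposited tables. All 36 were found among the 24848 genes in the tables, and all 36 were among the 15848 genes expressed highly enough to be tested. The series holds brains from E14.5 (mid-gestation) embryos, 3 labelled WT and 3 labelled E4f1 KO, each from its own numbered animal. Its title concerns E4F1, a zinc finger transcription factor, and its part in pyruvate metabolism, Elongator and translation in the developing brain. The labels give no strain, litter, promoter or Cre driver, and no allele, so whether every brain cell lacks E4f1 cannot be read from them.

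At this stage the brain is built from a layer of dividing radial glia along the ventricles, from intermediate progenitors that divide beside them, and from neurons, which have left the cell cycle. Replication origins are licensed in G1 phase, when CDC6 and CDT1 load the MCM helicase onto DNA, and they fire in S phase under cyclin E and its kinase. Transcription of these genes peaks around the entry into S phase and is driven by E2F factors, which bind the E2F motif. Mitotic genes peak in the G2 and M phases, and many carry a cell cycle genes homology region (CHR) in the promoter, often with CCAAT boxes, the binding site of NF-Y. In RNA from whole tissue, fewer dividing cells and less RNA per dividing cell cannot be told apart.

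Library totals ran from 42113465 expected counts in WT 2 to 74064707 in WT 1, and the members together took between 0.151% and 0.344% of them. The lowest single count was 196, for Gins2 in WT 2, where counting error alone is about 7.14%. Levels are given as CPM, counts scaled to the same library total by TMM. E4f1 itself stood at 20.7, 21.6 and 21.5 CPM in WT and at 7.12, 7.01 and 6.92 CPM in KO (log2 fold change -1.60 ± 0.08, SE over 3 brains a group; adjusted p = 0.00142 by edgeR). Markers of neurons and of radial glia were abundant in all 6 libraries. WT 2 stood apart from the other 5 libraries in nearly all members, so results are also given without it. Midbrain genes separated the libraries too: En1, En2 and Pax5 summed to 69.9, 33.9 and 3.07 CPM across the WT libraries and to between 0.266 and 1.61 CPM in KO.

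Promoter sequences show the features that these genes share beyond their names. RefSeq promoters of GRCm38, from 250 bases before the start of transcription to 50 after it, were found for 13 S-phase and 17 mitotic members. Mcm4, Ccne2, Gins2, Ccna2, Aurkb and Tpx2 had no entry in the table. The CHR was searched as TTTGAA or TTCGAA, the E2F motif as TTTGGCGC or TTTCGCGC and the NF-Y site as CCAAT, on both strands, each motif by itself and with overlapping matches counted. A CHR was found in 13 of 17 mitotic promoters (76.5%), in 2 of 13 S-phase promoters (15.4%) and in 16.2% of 12239 tested genes with a promoter entry. All 13 mitotic members with a CHR had one between 100 bases before and 50 after the start, and all 13 also held a CCAAT box, a pair found in 8.06% of tested genes. The E2F motif was found in 6 of 13 S-phase promoters (46.2%), in 1 of 17 mitotic ones (5.88%, Cdk1) and in 1.66% of tested genes. The core TGACGT, which occurs in sites bound by E4F1 and by ATF and CREB factors, was found in 2 of 13 S-phase promoters (Mcm2 and Mcm5) and 1 of 17 mitotic ones (Cenpe), against 12.4% of tested genes. A match is a run of letters and does not show that a factor was bound.

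The mitotic members with a CHR and the smallest p in the comparison of KO with WT were Cdk1, Top2a and Ccnb2, and their promoters are shown because they carry the shared arrangement in full. Each stretch ends 15 bases after the start of transcription, is read on the strand of the gene (the minus strand in all 3), and has CHR and CCAAT matches in capitals, where ATTGG is CCAAT and TTCAAA is TTTGAA on the other strand. They lie at chr10:69352898-69353072, chr11:99024175-99024378 and chr9:70421540-70421731 of GRCm38. Top2a held 4 CHR and 5 CCAAT matches in the stretch shown, Ccnb2 2 and 3, and Cdk1 2 and 2.
Cdk1: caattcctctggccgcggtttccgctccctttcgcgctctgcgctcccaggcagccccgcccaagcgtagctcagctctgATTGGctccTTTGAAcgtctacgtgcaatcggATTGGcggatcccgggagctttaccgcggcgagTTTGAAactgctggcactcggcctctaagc
Top2a: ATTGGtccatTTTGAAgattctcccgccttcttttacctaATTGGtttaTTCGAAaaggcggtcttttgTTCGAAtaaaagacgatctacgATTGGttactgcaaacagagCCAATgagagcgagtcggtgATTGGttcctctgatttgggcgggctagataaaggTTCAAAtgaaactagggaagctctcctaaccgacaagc
Ccnb2: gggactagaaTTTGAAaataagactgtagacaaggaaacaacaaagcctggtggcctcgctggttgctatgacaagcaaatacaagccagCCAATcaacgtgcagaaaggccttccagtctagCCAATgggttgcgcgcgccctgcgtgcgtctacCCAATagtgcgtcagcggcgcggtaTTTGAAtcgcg

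Among S-phase members, the same rule gave Cdt1, Mcm6 and Mcm3, shown with E2F matches in capitals. For Cdt1 (chr8:122568035-122568064, plus strand) and Mcm3 (chr1:20820263-20820292, minus strand) the match lies after the start of transcription and 30 bases are given. For Mcm6 (chr1:128359691-128359825, minus strand) the stretch runs from 120 bases before the start to 15 after it and holds 3 matches, of which 2 overlap.
Cdt1: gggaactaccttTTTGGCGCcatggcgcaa
Mcm6: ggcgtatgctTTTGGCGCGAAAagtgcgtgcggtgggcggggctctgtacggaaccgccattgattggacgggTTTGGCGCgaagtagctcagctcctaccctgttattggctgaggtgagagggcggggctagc
Mcm3: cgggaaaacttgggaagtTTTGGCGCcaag

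No replication or mitosis gene among the 36 passed the test for a difference between KO and WT, and the levels of the groups overlapped in 35 of them. The edgeR quasi-likelihood test, with Benjamini-Hochberg adjustment over all 15848 genes, called 0 of 16 S-phase and 0 of 20 mitotic members at an adjusted p below 0.05, against 1% of all tested genes (0.511% higher and 0.492% lower in KO). At an unadjusted p below 0.05, 1 S-phase member (Cdt1) and 0 mitotic members were higher in KO, while 10.3% of all tested genes were. DESeq2 called Cdt1 alone, against 8.87% of the genes it tested. All 36 fitted fold changes were nonetheless positive, with a median log2 fold change of 0.36 for S-phase members and 0.35 for mitotic ones, beside a median of 0.00 for all tested genes, of which 49.9% were positive. The 95% confidence interval of the fold change included 0 for 35 of 36 members, and for 12742 of the 15848 tested genes. It lay below a 2-fold increase for 21 members, a smaller share than the 13477 of 15848 tested genes.

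The positive values rested largely on WT 2. This library had the lowest level of all 6 libraries in 35 of 36 members, all but Ccne2, against 24.3% of all tested genes. Its mitotic members stood at a median of 0.507 of their WT 1 level (0.442 to 0.554) and its S-phase members at 0.564 (0.444 to 0.678), while WT 3 stood at 0.899 and 0.855. Without WT 2 the median log2 fold change was 0.089 for the mitotic members, of which 18 of 20 were positive, and 0.16 for the S-phase members, of which 12 of 16 were positive. Again edgeR called 0 members, with Cdt1 alone at an unadjusted p below 0.05. The intervals became narrower. Without WT 2 all 20 mitotic intervals and 15 of 16 S-phase intervals lay below a 2-fold increase, against 13023 of 16094 tested genes. The median SE went from 0.27 to 0.15 for mitotic and from 0.24 to 0.15 for S-phase members, and was 0.14 in both fits for all tested genes. WT 2 was left out because it stood apart in these members, so smaller fold changes and narrower intervals follow from that choice.

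**Figure D1:**
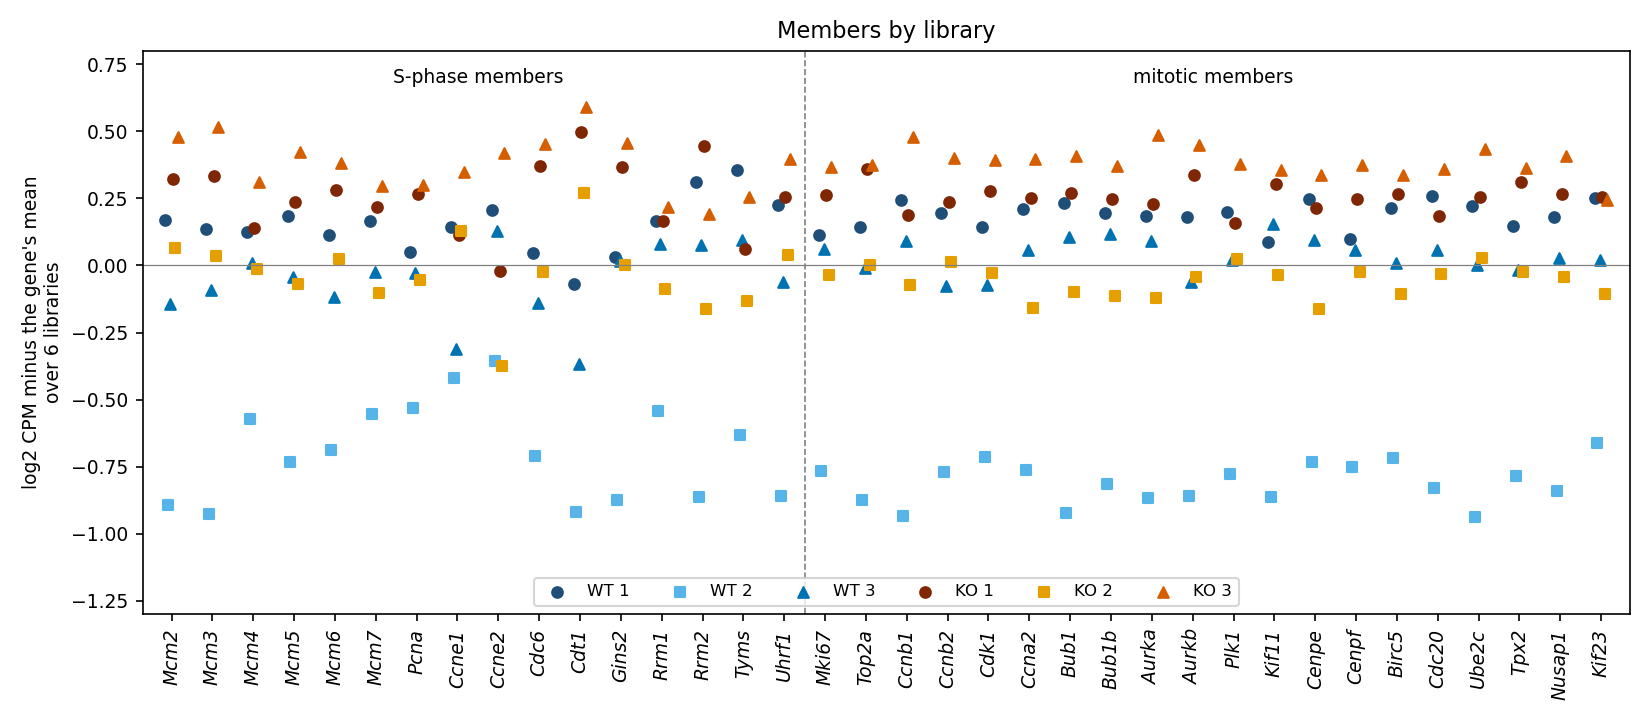
Level of each of the 36 members in each library, as log2 CPM minus the mean of that gene over the 6 libraries; blue symbols are WT and brown to orange symbols KO, with S-phase members left of the dashed line. WT 2 is the lowest library in 35 of 36 members and KO 3 the highest in 33, while WT 1, WT 3, KO 1 and KO 2 lie between them and interleave.

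The spread between libraries of the same group was larger for these genes than for most others, mainly in WT. The SD of log2 CPM over the 3 WT libraries had a median of 0.54 for mitotic and 0.42 for S-phase members, against 0.17 for all tested genes. Over the KO libraries it was 0.21 and 0.20, against 0.14. KO libraries had an order of their own: KO 3 was the highest of all 6 in 33 of 36 members (25.9% of all tested genes) and KO 2 the lowest KO library in 35 (36.9% of all tested genes). Averaged over each list, the S-phase level was 5.55, 4.71 and 5.34 log2 CPM in the 3 WT libraries, against 5.66, 5.37 and 5.78 in the KO libraries. The mitotic level was 6.05, 5.05 and 5.90 in WT and 6.12, 5.81 and 6.25 in KO. KO 2 thus lay below WT 1 in both lists and below WT 3 in the mitotic one, so the groups overlapped. The S-phase level minus the mitotic level was between -0.55 and -0.34 in WT and between -0.47 and -0.43 in KO.

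Cdt1, the licensing factor that brings the MCM helicase to origins (chromosome 8, 122568015 to 122573130), was the member that differed most. It was at 22.1, 12.3 and 17.96 CPM in WT and at 32.7, 28 and 34.9 CPM in KO. It was the only member in which every KO library lay above every WT library, a pattern shown by 14.6% of all tested genes (13.0% had every KO library below). Its mean was 17.4 ± 4.94 CPM (SD, n = 3) in WT and 31.9 ± 3.54 CPM in KO, 1.82-fold, with a log2 fold change of 0.87 ± 0.22 (SE) and a confidence interval from 0.34 to 1.39. The edgeR adjusted p was 0.127, and the DESeq2 adjusted p was 0.00623. Without WT 2 the log2 fold change was 0.67 ± 0.14 (adjusted p = 0.141). Over the 6 fits that left out a library it ranged from 0.67 to 1.07, with adjusted p between 0.1205 and 0.3945. Of the alternatives run, DESeq2 alone called it.

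Cdc6, the ATPase that works beside CDT1 at origins, showed a smaller difference. It was at 13.3, 7.86 and 11.7 CPM in WT and at 16.6, 12.6 and 17.6 CPM in KO, so that KO 2 lay below WT 1. Its log2 fold change was 0.51 ± 0.23 (edgeR adjusted p = 0.275), and 0.32 without WT 2.

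The 6 subunits of the MCM helicase, the ring that unwinds DNA at the fork, had log2 fold changes between 0.25 (Mcm7) and 0.53 (Mcm3). Mcm2 (chromosome 6, 88883474 to 88898780) stood at 95.5, 45.7 and 76.8 CPM in WT and at 106, 88.8 and 118 CPM in KO. Mcm3 stood at 71.6, 34.2 and 61.1 CPM in WT and at 82.0, 66.8 and 93.1 CPM in KO. In both genes WT 2 was far below the other 5 libraries and KO 2 lay between WT 3 and WT 1. Adjusted p for the 6 subunits was between 0.318 and 0.511 by edgeR, and without WT 2 their log2 fold changes lay between 0.07 and 0.28. Mcm7, the most abundant of the 6, was at 145, 87.8 and 126 CPM in WT and at 150, 120 and 158 CPM in KO. The exons of Mcm7 overlap those of Ap4m1 and Cops6 on the other strand.

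Genes of the moving fork had log2 fold changes between 0.33 and 0.50. Pcna, the sliding clamp of the DNA polymerases (chromosome 2, 132249286 to 132253180), was at 99.0, 66.3 and 93.9 CPM in WT and at 115, 92.1 and 118 CPM in KO (log2 fold change 0.33 ± 0.17, edgeR adjusted p = 0.348). Uhrf1, which brings maintenance DNA methylation to new strands, had 0.40 ± 0.27 (adjusted p = 0.442). Gins2, a subunit of the complex that activates the helicase, was at 8.93, 4.77 and 8.83 CPM in WT and at 11.2, 8.74 and 11.99 CPM in KO. Of its exon bases, 67.3% overlap Gse1, a more abundant gene on the other strand, and since the strand setting of the counting is not given in the sources used here, reads of the pair may not be separated.

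The genes of nucleotide supply, which make the precursors of DNA, had log2 fold changes between 0.07 and 0.25. Rrm1, the large subunit of ribonucleotide reductase, was at 144, 88.1 and 136 CPM in WT and at 144, 121 and 149 CPM in KO (log2 fold change 0.17 ± 0.19). Rrm2, its small subunit, was at 86.2, 38.3 and 73.3 CPM in WT and at 94.6, 62.1 and 79.5 CPM in KO (0.25 ± 0.31). Tyms, the thymidylate synthase, was highest in WT 1, at 30.9, 15.6 and 25.8 CPM in WT and 25.2, 22.0 and 28.8 CPM in KO (0.07 ± 0.25). None of these 3 passed the test, with edgeR adjusted p between 0.653 and 0.897, and without WT 2 their log2 fold changes were -0.02, -0.02 and -0.16. Of the 2 E cyclins, which start S phase with CDK2, Ccne1 had 0.37 ± 0.18 (adjusted p = 0.311) and Ccne2 had 0.03 ± 0.25 (adjusted p = 0.957). Ccne2 was at 11.4, 7.71 and 10.8 CPM in WT and at 9.72, 7.60 and 13.2 CPM in KO, the only member whose lowest library was KO 2. Exons of Ccne2 overlap Ints8 on the other strand.

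**Figure D2:**
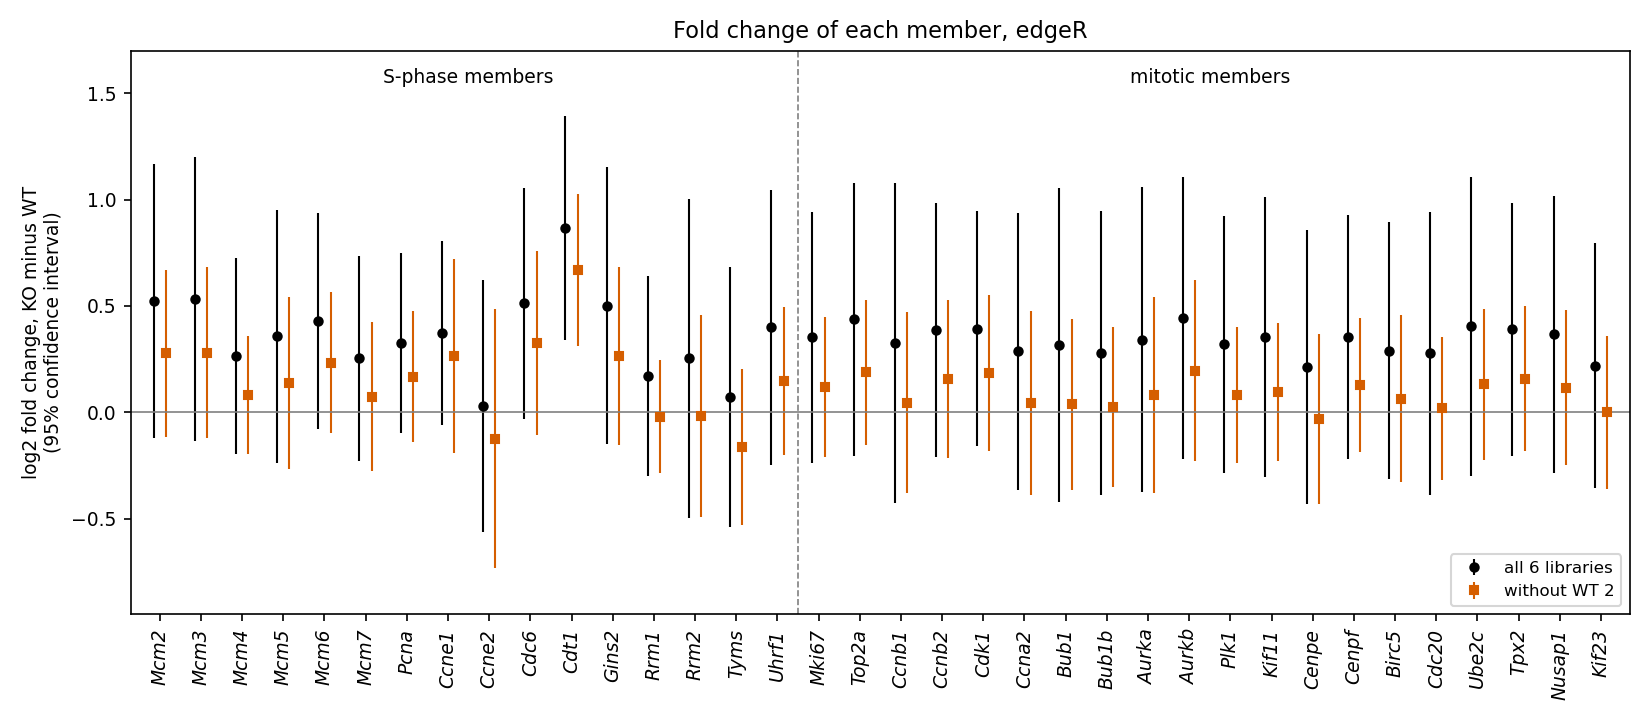
Log2 fold change of KO over WT for each member with its 95% confidence interval, from edgeR with all 6 libraries (black circles) and without WT 2 (orange squares). With all libraries the 36 values lie between 0.03 and 0.87. Without WT 2 they are lower and lie between -0.16 (Tyms) and 0.67 (Cdt1). The unadjusted interval of Cdt1 then excludes 0, while its edgeR adjusted p is 0.141.

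Mitotic members resembled each other more closely than S-phase members did, with log2 fold changes between 0.21 (Cenpe) and 0.44 (Aurkb) and edgeR adjusted p between 0.383 and 0.684. Mki67, which coats mitotic chromosomes and is the common marker of dividing cells (chromosome 7, 135689784 to 135716450), was the most abundant by CPM. It was at 447, 243 and 431 CPM in WT and at 495, 402 and 532 CPM in KO (0.35 ± 0.24). Top2a, the topoisomerase that untangles sister chromatids (chromosome 11, 98992947 to 99024199), was at 290, 143 and 261 CPM in WT and at 337, 263 and 341 CPM in KO (0.44 ± 0.27). In both genes KO 2 lay below the highest WT library, and without WT 2 the log2 fold changes were 0.12 and 0.19.

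The cyclins and kinases of mitotic entry had log2 fold changes between 0.29 and 0.39. Cdk1, the kinase that starts mitosis (chromosome 10, 69335146 to 69352912), was at 43.9, 24.2 and 37.8 CPM in WT and at 48.2, 39.0 and 52.1 CPM in KO, and had the smallest adjusted p of the mitotic members (0.383). Its partner Ccnb1 was at 54.8, 24.2 and 49.3 CPM in WT and at 52.7, 43.9 and 64.4 CPM in KO. For Ccnb1 both KO 1 and KO 2 lay below WT 1, and its log2 fold change was 0.33 ± 0.31 with all libraries and 0.04 ± 0.17 without WT 2. Ccnb2, the second B cyclin, had 0.39, and Ccna2, cyclin A2, which acts in S phase and at mitotic entry, had 0.29. Plk1 and Aurka, kinases of centrosome maturation and spindle assembly, had 0.32 and 0.34, and without WT 2 each of them had 0.08.

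At the centromere, Aurkb and Birc5, the kinase and the survivin subunit of the chromosomal passenger complex, had log2 fold changes of 0.44 and 0.29. Bub1 and Bub1b, which act in the spindle checkpoint, had 0.32 and 0.28, and the kinetochore proteins Cenpe and Cenpf had 0.21 and 0.36. Aurkb was at 35.5, 17.3 and 30.1 CPM in WT and at 39.6, 30.4 and 42.7 CPM in KO. Cenpe was at 84.3, 42.7 and 75.8 CPM in WT and at 82.3, 63.4 and 89.5 CPM in KO. Aurkb and Cenpe are thus the ends of the mitotic range, and in both the order of the libraries was alike, with WT 2 lowest and KO 3 highest.

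Spindle and exit genes filled the same range. Kif11 and Kif23, motors of spindle bipolarity and of cytokinesis, had log2 fold changes of 0.36 and 0.22, and Tpx2 and Nusap1, which nucleate and bundle spindle microtubules, had 0.39 and 0.37. Cdc20 and Ube2c, the activator and the ubiquitin-conjugating enzyme of the anaphase-promoting complex, had 0.28 and 0.40. Ube2c was at 60.02, 26.9 and 51.5 CPM in WT and at 61.4, 52.4 and 69.6 CPM in KO, so that WT 1 lay above KO 2. Exons of Ccna2, Cdc20, Nusap1 and Ube2c overlap a gene on the other strand, over between 2.84% (Cdc20) and 22.8% (Ube2c) of their exon bases.

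Setting each S-phase member against the mean of the other 15 in the same library removes the average shift of WT 2 over the list. WT 2 remained the lowest library for Mcm2, Mcm3, Gins2 and Uhrf1. This comparison was added after the levels had been seen, is a description and carries no p. On this scale Cdt1 was at -1.16, -1.17 and -1.26 log2 units in WT and at -0.66, -0.60 and -0.70 in KO, a difference of 0.54 with an SD of 0.05 in each group. The KO minus WT difference of the other 15 lay between -0.41 (Ccne2) and 0.20 (Mcm3). Cdt1 was not alone in separating the groups on this scale. Every KO library also lay above every WT library for Mcm2, Mcm3, Mcm6 and Cdc6, and below for Mcm7, Ccne2, Rrm1 and Tyms. No share over all tested genes is available on this scale, so these separations have no background to be read against. A place below the list is not a lower level. By CPM the log2 fold changes of Mcm7, Ccne2, Rrm1 and Tyms were positive (0.25, 0.03, 0.17 and 0.07). Cdc6, the other licensing loader, had 0.14, and the MCM subunits lay on both sides of 0, from -0.14 (Mcm7) to 0.20. Mitotic members set against their own list lay closer together, between -0.14 (Cenpe) and 0.11 (Aurkb). Among them every KO library lay above every WT library for Top2a, Aurkb and Nusap1, and below for Ccna2, Bub1b and Cenpe.

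**Figure D3:**
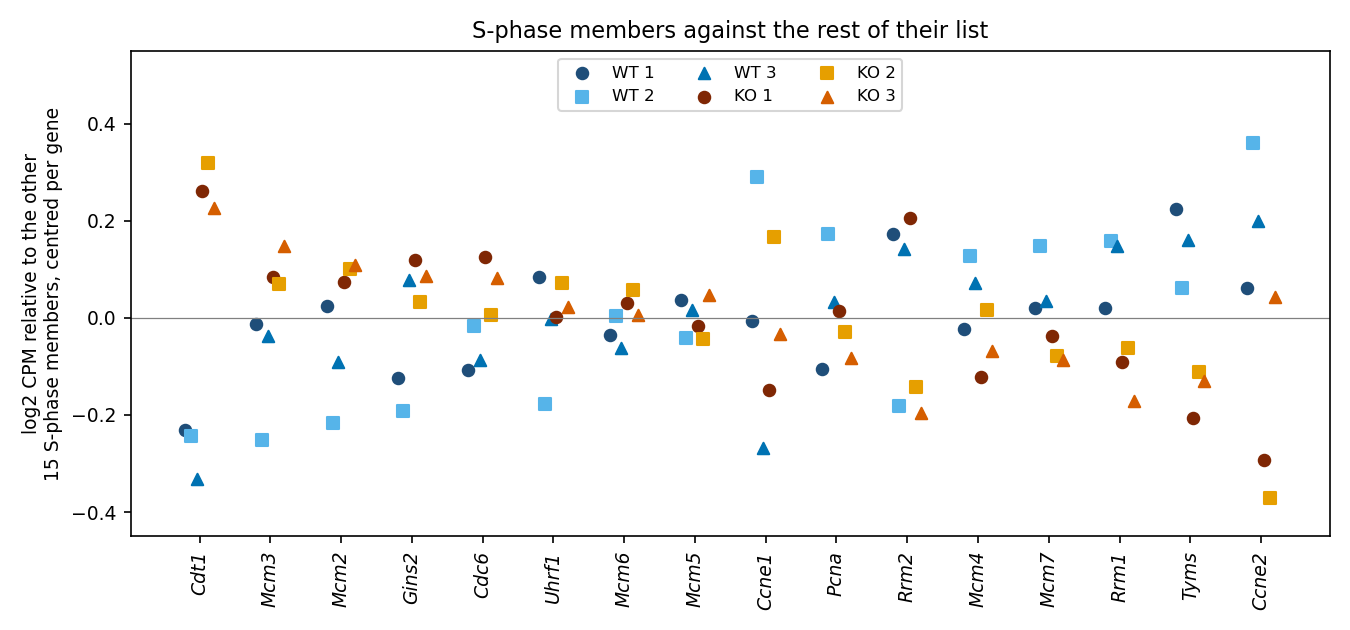
Log2 CPM of each S-phase member relative to the mean of the other 15 in the same library, centred on the gene's mean over 6 libraries and sorted by the KO minus WT difference. Cdt1, at the left, has its 3 KO libraries well above its 3 WT libraries (difference 0.54). All KO libraries also lie above all WT ones for Mcm2, Mcm3, Mcm6 and Cdc6, and below them for Mcm7, Ccne2, Rrm1 and Tyms. These are places relative to the list, with no share over all tested genes to set them against. WT 2 is still the lowest library for Mcm2, Mcm3, Gins2 and Uhrf1.

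Levels between genes can be compared per transcript length, as the TPM values that the authors deposited. Pcna was the highest member in WT at 209 ± 42.5 TPM (SD, n = 3), followed by Ube2c at 163 ± 60.9 and Mcm7 at 134 ± 32.9 TPM. The lowest were Ccne1 at 10.2 ± 2.22, Ccne2 at 8.92 ± 1.75 and Cdc6 at 6.38 ± 1.61 TPM. Of the 35 pairs of neighbours in this order, 2 differed by more than the larger SD of the pair. That SD includes the low level of WT 2, which most members share. It therefore does not decide whether neighbours can be ranked within a library. The 7 highest members were in the same order in KO. Cdt1 moved from place 31 in WT (22.3 ± 6.29 TPM) to place 26 in KO (40.0 ± 4.17 TPM).

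Other cell cycle genes were also mostly positive, and edgeR called none of them in any of 4 further lists. Of 46 other replication genes, 42 had positive fold changes (median log2 fold change 0.28) and 7 were higher at an unadjusted p below 0.05, where 10.3% of all tested genes were. Of 60 other mitotic genes, 59 were positive (median 0.34), with 4 at an unadjusted p below 0.05, and of 27 G1 cyclins, kinases and E2F or RB family genes, 23 were positive (median 0.15), also with 4. WT 2 was the lowest library in 42, 58 and 21 of them, and without it the medians were 0.12, 0.12 and 0.13. DESeq2 called 3, 2 and 0 higher and none lower, against 8.87% of all genes it tested in either direction.

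Pold1, the catalytic subunit of DNA polymerase delta, had the largest difference of the replication genes that are not members, at 40.9, 27.7 and 38.9 CPM in WT and 59.7, 49.9 and 61.7 CPM in KO (log2 fold change 0.67 ± 0.17, edgeR adjusted p = 0.122). Mcm10, which couples the helicase to the polymerases, had 0.55 ± 0.25. In the mitotic list these were Anln, the actin-binding protein of the cleavage furrow (0.60 ± 0.20), and Pttg1, securin (0.57 ± 0.18). In the G1 list they were Ccnd1, cyclin D1, at 118, 53.5 and 73.1 CPM in WT and 122, 121 and 160 CPM in KO (0.72 ± 0.29, edgeR adjusted p = 0.247), and E2f2 (0.53 ± 0.23). Every KO library lay above every WT library in 8 of 46, 6 of 60 and 6 of 27 genes of these lists, Pold1, Anln, Pttg1, Ccnd1 and E2f2 among them, against 14.6% of all tested genes. Of 7 CDK inhibitors, which hold cells in G1, 6 were expressed highly enough to be tested and 4 had positive fold changes (median 0.25). WT 2 was the lowest library in 1 of the 6, and 1 was higher at an unadjusted edgeR p below 0.05. Without WT 2 the median was 0.27, with 4 again positive. Then 2 were higher at an unadjusted edgeR p below 0.05, where 1585 of 16094 tested genes were. Cdkn1a, the p53 target p21, was at 18.8, 28.4 and 17.1 CPM in WT and at 24.5, 26.1 and 29.5 CPM in KO (0.32 ± 0.20, adjusted p = 0.419). Cdkn2b had 0.81 ± 0.37 (edgeR adjusted p = 0.285) but stayed below 0.41 CPM in all libraries.

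Progenitor markers shared the low level of WT 2 with the members, but not the rest of the order of the libraries. WT 1 was the highest library in 5 of 8 intermediate progenitor and 5 of 10 radial glia markers, and KO 3 in 3 of each. Among the members KO 3 was highest in 33 of 36. All 8 intermediate progenitor markers and 8 of 10 radial glia markers were lowest in WT 2, while 0 of 12 neuron markers were. The mean level of intermediate progenitor markers was 5.92, 4.76 and 5.59 log2 CPM in WT and 5.77, 5.51 and 5.94 in KO. That of radial glia markers was 7.14, 6.50 and 6.91 in WT and 6.86, 6.85 and 7.02 in KO. Neuron markers ran the other way, at 8.53, 8.79 and 8.55 in WT and 8.21, 8.46 and 7.87 in KO, with WT 2 highest of all and KO 3 lowest. Summed over the 12 neuron markers, the level was 8013 to 9224 CPM in WT and 5698 to 7119 CPM in KO, and edgeR called 0 of the 12. At an unadjusted edgeR p below 0.05, 6 were lower, where 1475 of the 15848 tested genes were. DESeq2 called 4 lower, against 658 of the 16217 genes it tested. The mitotic level minus the intermediate progenitor level was 0.13, 0.30 and 0.30 in WT and 0.35, 0.30 and 0.31 in KO, with WT 1 lowest, while the S-phase level minus that of intermediate progenitors was -0.37, -0.05 and -0.25 in WT and -0.11, -0.13 and -0.16 in KO, with WT 2 highest. Against radial glia markers WT 2 remained the lowest library. The mitotic level minus the radial glia level was -1.09, -1.44 and -1.01 in WT and -0.74, -1.05 and -0.77 in KO, so the groups overlapped. The S-phase level minus the radial glia level was -1.59, -1.79 and -1.56 in WT and -1.20, -1.48 and -1.24 in KO, so every KO library lay above every WT library. Whether the share of these cells accounts for the level of the members was not tested.

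**Figure D4:**
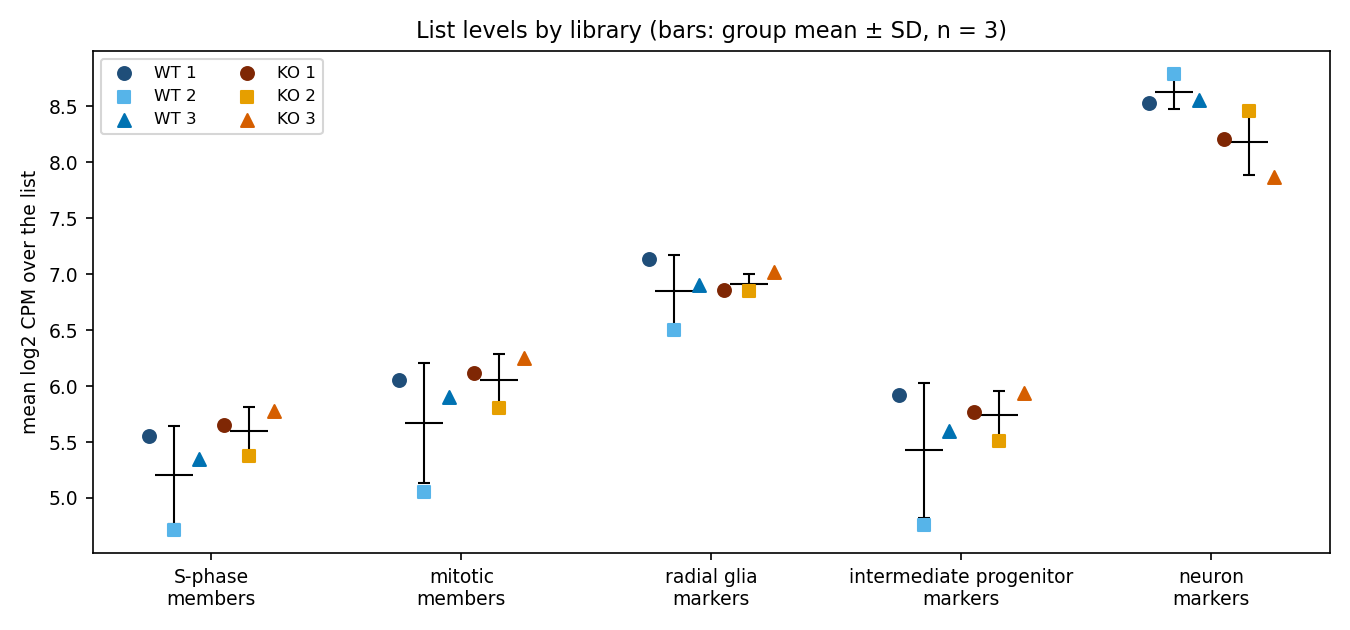
Mean log2 CPM of 5 gene lists in each library, with the mean ± SD of the 3 libraries of each group as black bars. WT 2 is lowest for both member lists and both progenitor lists and highest for neuron markers, where KO 3 is lowest at 7.87.

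Markers of other cells in the brain, some of which also divide, were measured beside the members. The 9 microglia and macrophage markers summed to 53.7 to 86.4 CPM in WT and to 102 to 138 CPM in KO, and 1 of them, Cx3cr1, was called higher (log2 fold change 1.03 ± 0.15, edgeR adjusted p = 0.0395), against 0.511% of all tested genes. DESeq2 called 6 of the 9 higher, against 780 of the 16217 genes it tested. Without WT 2 edgeR called 0 of them, and 7 were higher at an unadjusted p below 0.05, where 1585 of 16094 tested genes were. The median log2 fold change of these markers was then 1.12, against 0.87 with all libraries. The 8 endothelial and pericyte markers summed to 346 to 404 CPM in WT and 421 to 571 CPM in KO, and the 11 erythroid markers to 314 to 894 CPM and 703 to 1003 CPM, the latter overlapping between the groups. Of these, 5 of 8 and 2 of 11 were higher at an unadjusted edgeR p below 0.05, against 10.3% of all tested genes. After adjustment edgeR called 0, and DESeq2 called 3 and 2 higher, beside the 780 of 16217 genes given above. All 8 endothelial and pericyte markers had positive fold changes. The erythroid list was split, with 8 of 11 positive and log2 fold changes from -2.89 to 1.25. No marker in these lists had a count of 0 in any library. Their part in the levels of the members was not tested.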

How the data were processed

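Per the submitters' processing notes, FastQC, Trimmomatic, STAR (2.5.3a) and RSEM (1.2.28) were used with the builds mm10 and GRCm38. Settings, and whether the counting used strand, are not given in these sources. Per the labels, libraries were stranded, made from mRNA with a KAPA kit. The authors deposited, per the file headers, an expected count (RSEM's estimate of the fragments from a gene) and a TPM (abundance scaled by transcript length and library) for each gene. Expected counts were rounded. Genes were kept by filterByExpr, libraries scaled by TMM, and the groups compared by edgeR's quasi-likelihood test (4.0.16, robust, both directions), adjusted by Benjamini and Hochberg over all 15848 genes. Confidence intervals use the SE that corresponds to the F statistic. Mean log2 CPM levels use a prior count of 0.5. The alternatives used DESeq2 (1.42.0) and limma (3.58.1), the latter also on log2(TPM + 1). The edgeR test was also run on simulated data.

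The members and lists were chosen with earlier results of these data known. All members were admitted by name; in each further cell cycle list, called genes and the 2 largest fold changes were named. Promoters shown are those with the smallest p among members that hold the motif of their class. Pairs of libraries of a group differed by a chi-square per degree of freedom of at least 43.5, so each counted as a replicate. Labels do not give litters, so p-values measure the spread between these animals.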

Additional observations from a re-analysis of the deposited data

How the results depend on the processing

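Among the alternatives run, DESeq2 alone called a member (1, Cdt1, log2 fold change 0.87), and it called 5 genes of the 4 further lists, where edgeR called 0. The 159 calls over all genes became 1438 with DESeq2, 245 with limma on log2(TPM + 1), 248 with the smaller pseudocount of 0.1, and 0 both with the midbrain score (En1, En2 and Pax5) as a covariate and when WT 3 and KO 3 were left out together (741 and 1546 at an unadjusted p below 0.05 by edgeR). Without 1 library they were between 36 (without KO 1) and 82 (without WT 2). Scaling by library totals gave 123 higher and 63 lower, against 81 and 78. The midbrain score was 4.12, 3.18 and -0.24 log2 CPM in WT and -3.39, -1.47 and -2.19 in KO. It thus separated the groups itself, and the fit with it cannot tell midbrain content and genotype apart. The cause of these changes was not tested. The median of the mitotic members was between 0.089 (without WT 2) and 0.52 (without WT 1) in those fits, 0.41 under scaling by library totals, which moves all genes by 0.06, and 0.15 with the midbrain score. That of the S-phase members was between 0.16 and 0.56, 0.43 and 0.23. The replicate block called 66 genes and 0 members, with 9 S-phase and 12 mitotic members at an unadjusted p below 0.05. Deviations of same-numbered libraries correlated at 0.131, 0.174 and 0.00121, and those of differently numbered ones at between -0.235 and 0.104. The labels do not say that the numbers pair the brains, and whether they do was not tested. The block is therefore not read as a stronger effect. WT 2, which was lowest in most members, was also the shallowest library; the part of depth in its levels was not tested.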
